A study of Mus musculus with 6 samples.

Results

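The genes described are 10 genes by which enterocytes, the absorptive cells of the small bowel mucosa, take up, rebuild and export dietary fat. They were chosen by symbol from the 26110 genes of the table and comprise Fabp1, Fabp2, Mogat2, Dgat1, Mttp, Apob, Apoa1, Apoa4, Apoc3 and Npc1l1. Each symbol matched 1 gene. They were compared between MHCIIhi CX3CR1- and MHCIIhi CX3CR1+ cells sorted from the muscularis externa (ME), the muscle coat of the bowel wall that lies outside the mucosa. All 6 libraries, 3 of each population, were made from untreated mice of the genotype CX3CR1+/GFP, in which 1 Cx3cr1 allele carries the fluorescent protein GFP that reports CX3CR1 in the sort. The comparison asks how the RNA of these populations differs in the absence of surgery. It pooled the ME of 6 mice per group, and whether each library had a pool of its own is not stated, so that p-values measure only the spread between these libraries. The labels call the sorted cells dendritic cells, and the paper calls them macrophages.

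Dietary triglyceride reaches the enterocyte as fatty acids and monoacylglycerol. The cytosolic binding proteins FABP1 and FABP2 bind fatty acids, MOGAT2 and DGAT1 join monoacylglycerol and fatty acids to triglyceride, and MTTP loads this lipid onto APOB, the scaffold of the chylomicron. APOA1, APOA4 and APOC3 are carried on these particles, and NPC1L1 is the apical transporter that brings in cholesterol. In the small bowel these genes are known as genes of the villus epithelium, whereas Dgat1 is used by many cell types.

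The values are estimated counts per gene normalized between libraries, and the smallest step of a library, taken as 1 read, gave depths of about 6517536 to 11927366 reads in CX3CR1- and 5346381 to 17616761 reads in CX3CR1+ libraries. Values of up to 3 reads, which lay between 1.39 and 5.36 on the normalized scale, were treated as not measurable. In bulk libraries, fewer cells of a type and less RNA per cell cannot be told apart. Cx3cr1 itself ranged from 18.9 to 28.5 in the CX3CR1- libraries and from 347 to 380 in the CX3CR1+ ones. All 9 macrophage markers, among them Csf1r and Adgre1, were lower in CX3CR1- libraries, and all 8 dendritic cell markers, among them Flt3 and Zbtb46, were higher. Within CX3CR1- libraries the macrophage markers still summed to 7554 to 9046 and the dendritic cell markers to 3780 to 4515. In the paper, flow cytometry found few CX3CR1- cells with the dendritic cell proteins CD11c or CD103, and staining found the macrophage protein IBA-1. Mitochondrial genes made up 51.7 ± 3.76% of CX3CR1- and 19.6 ± 1.55% of CX3CR1+ normalized totals (SD, n = 3 each). CX3CR1- replicate 2 stood apart from the other CX3CR1- libraries on the second principal component, which carried 14.4% of the variance.

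The promoters of Fabp1, Fabp2 and Apob are shown because these genes moved together and the letters of at least 1 searched motif stand before their start. Of the 10 genes, 7 had a promoter window in the RefSeq table (GRCm38.p6, 250 bases before to 50 after the start). Capitals mark motif letters on either strand, and every sequence is given 5′ to 3′ on the strand of its gene, ending before the first annotated start.
Fabp1 (chr6:71199629-71199826, + strand): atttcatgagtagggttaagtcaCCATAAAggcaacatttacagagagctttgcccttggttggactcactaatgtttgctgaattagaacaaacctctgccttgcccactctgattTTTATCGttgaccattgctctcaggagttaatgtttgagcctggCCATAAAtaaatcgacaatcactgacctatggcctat
Fabp2 (chr3:122894822-122895071, + strand): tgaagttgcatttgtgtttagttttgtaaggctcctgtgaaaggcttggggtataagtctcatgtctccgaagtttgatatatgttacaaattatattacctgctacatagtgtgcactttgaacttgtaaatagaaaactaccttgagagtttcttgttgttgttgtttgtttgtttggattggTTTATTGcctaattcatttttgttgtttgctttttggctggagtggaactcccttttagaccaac
Apob (chr12:7977427-7977647, + strand): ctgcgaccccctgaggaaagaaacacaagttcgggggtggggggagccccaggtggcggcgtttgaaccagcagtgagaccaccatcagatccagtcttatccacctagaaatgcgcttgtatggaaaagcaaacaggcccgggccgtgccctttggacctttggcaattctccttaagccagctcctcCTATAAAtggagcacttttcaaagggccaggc

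In the stretch before Fabp1, the letters CNATAAA, which resemble the site of the caudal homeobox (CDX) factors, occurred 3 times. Fabp2 held the CDX letters once, on the opposite strand, and in Apob the CDX letters overlapped a TATA box (TATAAA) that starts 31 bases before the start. Over the whole windows, CDX letters stood in 3 of 7 member windows and in 10.9% of the 32817 windows of the table. The TATA box stood in 2 of 7 and in 13.6%, and the GATA letters (TGATAA) in 2 of 7 and in 9.06%. The HNF4 letters (CAAAGTCCA) stood in 0 of 7 member windows and in 0.475% of all windows.

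Of the 10 genes, 9 were called higher in CX3CR1- cells and none lower, where 12.2% of the 17812 tested genes were called higher and 8.15% lower. The gene not called was Dgat1. A gene was called at a log2 fold change of at least 1 in either direction and a Benjamini-Hochberg adjusted p of at most 0.05 across all tested genes, in limma on log2(value + 1). In the same 9 genes every CX3CR1- library lay above every CX3CR1+ library, as in 20.3% of all tested genes. Testing required an average of at least 10 across all libraries, which all 10 genes met, but 8 of them, all except Mttp and Dgat1, met it only through the CX3CR1- libraries and so had to differ. The 8 genes lay at or under 3 reads in at least 2 of the 3 CX3CR1+ libraries. Their fitted log2 fold changes depend on the pseudocount, and folds are therefore also given against the pooled reads of the 3 CX3CR1+ libraries, with a 95% exact Poisson interval that covers counting error in these reads only.

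**Figure D1:**
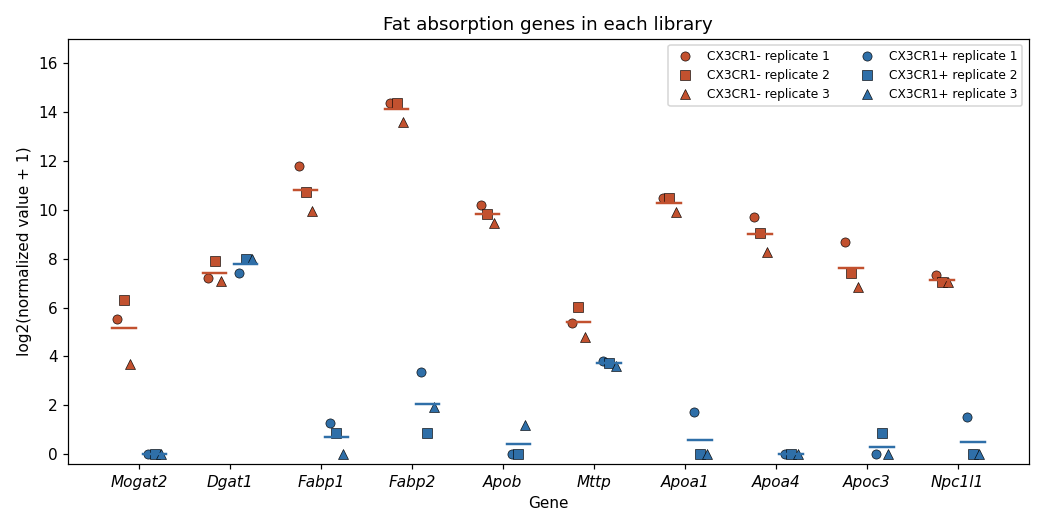
Normalized values of the 10 genes as log2(value + 1), 1 point per library with a symbol per replicate, with horizontal lines at the mean of the 3 libraries of each population. Points of CX3CR1- and CX3CR1+ libraries are apart in every gene but Dgat1, and Fabp2 is the highest gene at 12559 to 21161 in the CX3CR1- libraries.

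Fabp2, the intestinal fatty acid binding protein, carried the largest values. It lay at 21161, 21000 and 12559 in CX3CR1- replicates 1, 2 and 3 and at 9.25, 0.820 and 2.83 in CX3CR1+ replicates 1, 2 and 3. The CX3CR1+ values corresponded to 20, 1 and 2 reads, so that only CX3CR1+ replicate 1 held more than the 3-read level. The mean of 18240 ± 4921 (SD, n = 3) was 3241-fold (2160 to 5113) above the CX3CR1+ reads, with a fitted log2 fold change of 12.06 (SE 0.52, limma adjusted p = 1.45e-06).

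Fabp1, the binding protein that enterocytes share with hepatocytes, was high in the same libraries but more unevenly. Its values were 3525, 1702 and 991 in CX3CR1- and 1.39, 0.820 and 0 in CX3CR1+ replicates 1, 2 and 3, so that all CX3CR1+ libraries were at or under 3 reads. The CX3CR1- mean of 2073 ± 1307 (SD, n = 3) was 2118-fold (827 to 7774) above the 4 CX3CR1+ reads, with a log2 fold change of 10.12 (SE 0.50, limma adjusted p = 1.91e-06). CX3CR1- replicate 1 held 3.56 times as much Fabp1 as replicate 3, against 1.68 times for Fabp2. Fabp1 and Fabp2 share no 31-base stretch with any other gene of the annotation.

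The acyltransferases at both ends of triglyceride synthesis differed from each other. Mogat2, which makes diacylglycerol from monoacylglycerol, was at 44.9, 78.7 and 11.97 in CX3CR1- replicates 1, 2 and 3 and at 0 in all 3 CX3CR1+ libraries. Against the average 3-read level of the CX3CR1+ libraries, 2.70, its mean of 45.2 ± 33.4 (SD, n = 3) was at least 16.7-fold higher. The limma adjusted p was 0.00208. Replicate 2 held 6.58 times as much Mogat2 as replicate 3, the widest spread among the 10 genes, with 12 to 44 reads behind each CX3CR1- value.

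Dgat1, which adds the last fatty acid, was at 148, 237 and 133 in CX3CR1- and at 168, 256 and 251 in CX3CR1+ replicates 1, 2 and 3. The populations overlapped. Its means were 173 ± 56.1 and 225 ± 49.3 (SD, n = 3 each), and the log2 fold change of -0.40 had a 95% interval from -1.04 to 0.24 (limma adjusted p = 0.361, unadjusted exact two-sided permutation p = 0.2). The interval spans no difference and a somewhat more than 2-fold lower level in CX3CR1- cells alike.

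Apob, the structural protein of the chylomicron, was measured at 1185, 905 and 710 in CX3CR1- replicates 1, 2 and 3. In CX3CR1+ libraries it was at 0 in replicates 1 and 2 and at 1.32 in replicate 3, which is less than 1 estimated read. The CX3CR1- mean of 934 ± 239 (SD, n = 3) was 4105-fold above the pooled CX3CR1+ reads, with a counting interval of 685 to 150715 that shows how little 1 read fixes a ratio. The log2 fold change was 9.43 (SE 0.44, limma adjusted p = 1.47e-06).

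Mttp, the partner that lipidates APOB, was present in both populations. It lay at 40.4, 63.2 and 26.7 in CX3CR1- and at 13.1, 12.3 and 11.2 in CX3CR1+ replicates 1, 2 and 3, so that the populations did not overlap. The means of 43.4 ± 18.5 and 12.2 ± 0.956 (SD, n = 3 each) differed 3.56-fold, with a log2 fold change of 1.67 (SE 0.45, limma adjusted p = 0.0218). The call was lost without CX3CR1- replicate 1 (adjusted p = 0.0501), without CX3CR1- replicate 2 (0.0608), without any 1 CX3CR1+ library (0.0575 to 0.0690) and under quantile normalization (0.0745). Mttp shares 6.43% of its 31-base stretches with Trmt10a, a tRNA methyltransferase gene, which was measured at 57.1 to 121 in CX3CR1- and at 45.9 to 55.9 in CX3CR1+ libraries.

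Apoa1, Apoc3 and Apoa4 lie side by side on chromosome 9 (GRCm38, 46228580 to 46243459), within 14.9 kb, with Apoc3 on the minus strand between its neighbours. All 3 were called higher in CX3CR1- cells. Apoa1, the main protein of high density lipoprotein and a chylomicron component, was at 1447, 1416 and 959 in CX3CR1- replicates 1, 2 and 3. In CX3CR1+ libraries it was at 2.31, which is 5 reads, in replicate 1 and at 0 in replicates 2 and 3. Its mean of 1274 ± 273 (SD, n = 3) was 1042-fold (446 to 3208) above these reads, with a log2 fold change of 9.72 (SE 0.49, limma adjusted p = 2.29e-06).

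Apoc3, which slows the clearance of triglyceride-rich particles, was at 405, 169 and 113 in CX3CR1- and at 0, 0.804 and 0 in CX3CR1+ replicates 1, 2 and 3. Its CX3CR1- mean was 229 ± 155 (SD, n = 3) and stood 956-fold (168 to 37002) above the single estimated CX3CR1+ read, with limma adjusted p = 2.11e-05. Apoa4, an apolipoprotein made by enterocytes in response to fat, was at 827, 531 and 311 in CX3CR1- and at 0 in all CX3CR1+ libraries. Its mean of 556 ± 259 (SD, n = 3) was at least 206-fold above the average 3-read level of the CX3CR1+ libraries (limma adjusted p = 2.69e-06). The Apoa4 values are uncertain, because 64.5% of its 31-base stretches also occur in other annotated transcripts, among them 32.3% of all its stretches in the predicted gene Gm47528, which was not analysed here. They were whole numbers of reads in every library, with 792, 297 and 312 in CX3CR1- replicates 1, 2 and 3.

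The tested genes around the cluster were not called. Within 100 kb, Sik3, on the Apoa1 side, had means of 299 ± 78.4 in CX3CR1- and 229 ± 46.5 in CX3CR1+ libraries (limma adjusted p = 0.362). On the other side, Zpr1 had means of 72.2 ± 23.2 and 57.4 ± 3.43 (adjusted p = 0.605), and Bud13 of 74.9 ± 45.9 and 74.8 ± 20.2 (adjusted p = 0.860; SD, n = 3 each).

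Npc1l1, the cholesterol transporter of the brush border and the target of ezetimibe, was the most even of the 10 genes across CX3CR1- libraries. It was at 161, 131 and 130 in CX3CR1- replicates 1, 2 and 3, at 1.85 (4 reads) in CX3CR1+ replicate 1 and at 0 in CX3CR1+ replicates 2 and 3. The CX3CR1- mean of 140 ± 17.7 (SD, n = 3) was 143-fold (56.0 to 526) above the CX3CR1+ reads, with a log2 fold change of 6.63 (SE 0.59, limma adjusted p = 3.33e-05). For each of the 9 called genes the exact permutation p was 0.1, the smallest that 3 libraries against 3 allow. The reads of Fabp2, Fabp1, Apoa1 and Npc1l1 among CX3CR1+ cells were most numerous in replicate 1, which was also the deepest library. The normalized values of these 4 genes were highest there too.

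**Figure D2:**
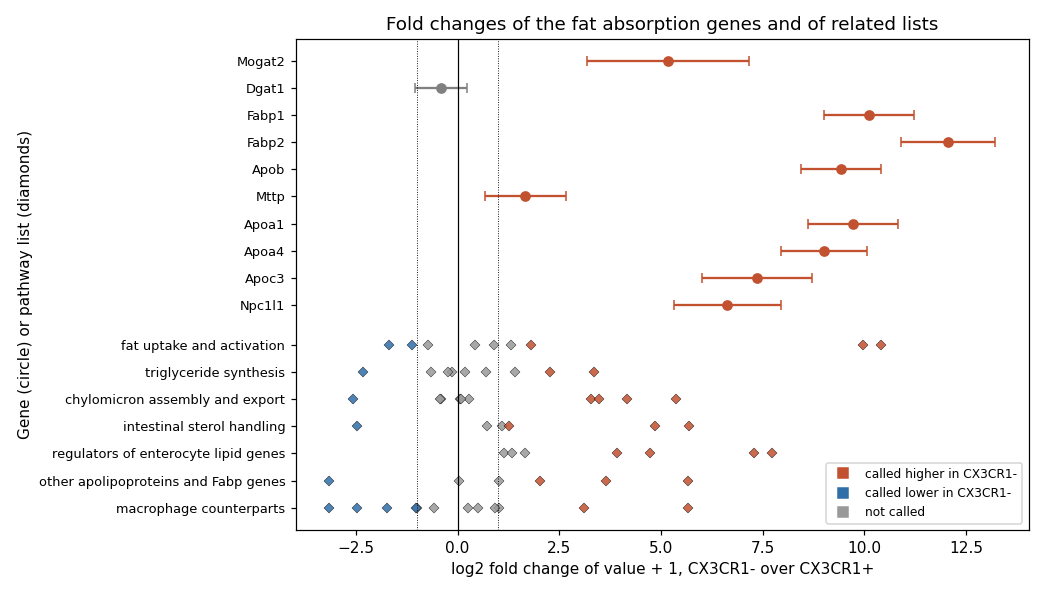
Log2 fold changes of value + 1, CX3CR1- over CX3CR1+, for the 10 genes (circles with 95% intervals) and for the tested genes of 7 lists of related lipid genes (1 diamond per gene), coloured by call. Dotted lines mark a log2 fold change of 1 in either direction. The 9 called genes lie between 1.67 and 12.06 and Dgat1 at -0.40. The lists spread over both directions, except the regulators, whose tested genes all have positive values.

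The wider lipid pathway was read from 7 lists that together hold 74 other genes, of which 64 were in the table and 55 were tested. Of these, 20 were called higher and 8 lower in CX3CR1- cells, where 12.2% of all tested genes were called higher and 8.15% lower. Their median log2 fold change was 0.93, where the median of all tested genes was -0.0035. Of the 20, 14 reached the mean of 10 only through the CX3CR1- libraries and so had to differ. Among genes of fat uptake and activation, 3 were called higher and 2 lower of 9 tested. Rbp2, the retinol binding protein of the enterocyte, had means of 1515 ± 725 and 0.618 ± 1.07, and Fabp6, the ileal bile acid binding protein, of 4135 ± 3086 and 1.96 ± 2.14 (SD, n = 3). Dbi, which binds acyl-CoA in many cells, was also higher, with a log2 fold change of 1.81 (SE 0.24). Cd36, a fatty acid and scavenger receptor that macrophages carry too, and the acyl-CoA synthetase Acsl1 were lower, with log2 fold changes of -1.13 (SE 0.21, limma adjusted p = 0.00309) and -1.69 (SE 0.33, adjusted p = 0.00382).

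In triglyceride synthesis, 2 genes were called higher and 1 lower of 9 tested, with a median of 0.19. The glycerol-phosphate acyltransferase Gpat3 and the lipid droplet coat gene Plin3 were higher, with log2 fold changes of 3.36 (SE 0.71) and 2.28 (SE 0.29). Lpin2, a phosphatidate phosphatase, was lower at -2.32 (SE 0.21, limma adjusted p = 3.95e-05). In chylomicron assembly and export, 4 were higher and 1 lower of 10 tested, with a median of 0.18. Cideb, which helps lipidate APOB particles, had means of 64.2 ± 23.1 and 0.820 ± 1.42, and Tm6sf2, another gene of particle lipidation, of 46.9 ± 46.0 and 3.09 ± 3.60 (SD, n = 3). The deaminase Apobec1 edits Apob mRNA, and Apobec1 and the gene of the APOBEC1 complementation factor, A1cf, moved in opposite directions. A1cf was higher in CX3CR1- cells at 4.18 (SE 0.61, limma adjusted p = 7.13e-04), and Apobec1 was lower at -2.57 (SE 0.21, adjusted p = 1.90e-05), with 370 to 600 in CX3CR1- and 2366 to 3025 in CX3CR1+ libraries.

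In sterol handling, 3 were higher and 1 lower of 6 tested, with a median of 1.17. Abcg5 and Abcg8, which form the transporter that returns sterols to the gut lumen, were at 0 in all CX3CR1+ libraries and at 29.7 ± 12.9 and 52.2 ± 16.1 in CX3CR1- libraries (SD, n = 3). Abca1, the cholesterol efflux pump, was lower at -2.46 (SE 0.21, limma adjusted p = 2.86e-05). Among regulators of these genes, 4 were higher and none lower of 7 tested, with a median of 3.91, and all 4 reached the mean of 10 only through the CX3CR1- libraries. The nuclear receptor genes Hnf4a and Hnf4g had means of 413 ± 229 and 243 ± 68.4 in CX3CR1- and of 1.42 ± 2.45 and 0.642 ± 0.751 in CX3CR1+ libraries. The homeobox gene Cdx2 lay at 111, 12.52 and 22.9 in CX3CR1- replicates 1, 2 and 3 and at no more than 0.925 in CX3CR1+ libraries. Cdx1 and Nr1h4 did not reach the mean of 10.

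Apolipoprotein and Fabp genes outside the 10 went in both directions, with 3 called higher and 1 lower of 6 tested and a median of 1.52. Among those tested, Apoe, which macrophages secrete, was the apolipoprotein called lower, at 2747 to 4629 in CX3CR1- and 27004 to 32197 in CX3CR1+ libraries. Its log2 fold change was -3.15 (SE 0.19, limma adjusted p = 4.84e-06). Fabp4, the binding protein of adipocytes, endothelium and some macrophages, was higher at 5.65 (SE 0.48), and Apod was higher at 3.64 (SE 0.54). Among genes of macrophage lipid handling, a list that shares Apoe, Fabp4, Fabp5 and Abca1 with those above, 2 were higher and 4 lower of 12 tested, with a median of -0.16. Lpl, the lipase that releases fatty acids from lipoproteins, was the other higher gene at 3.10 (SE 0.30).

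Levels were compared between the 10 genes as normalized value per kb of the longest protein-coding transcript, within the CX3CR1- libraries. Fabp2 was first in each of them, with 18902 ± 5099 per kb (SD, n = 3) and 70.8, 80.5 and 80.2% of the sum of the 10 genes in replicates 1, 2 and 3. Among 17050 genes with a length, Fabp2 ranked 28, 32 and 36. Fabp1 followed with 3749 ± 2363 and Apoa1 with 1231 ± 264 per kb, and the 3 libraries of each of these genes lay above all libraries of the next. Apoc3 with 323 ± 219 and Apoa4 with 306 ± 142 per kb overlapped. Dgat1 with 91.5 ± 29.7 and Apob with 67.0 ± 17.1 also overlapped. Mogat2 (25.4 ± 18.7) overlapped both Npc1l1 (31.4 ± 3.96) and Mttp (10.96 ± 4.66), while Npc1l1 lay above Mttp in every library. Mttp had the lowest mean, and Apob was 8.35, 4.07 and 7.56 times as high per kb as Mttp in replicates 1, 2 and 3. With the mean length of the protein-coding transcripts these ratios were 13.5, 6.58 and 12.2.

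**Figure D3:**
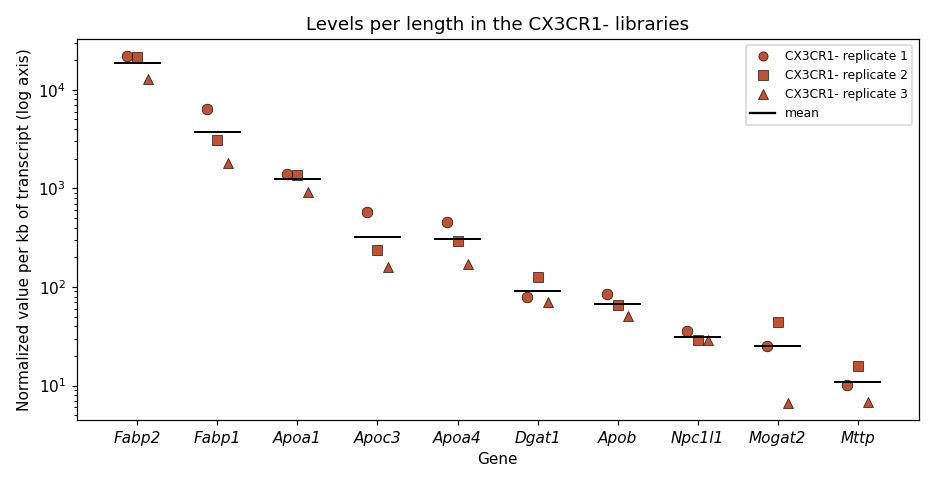
Normalized value per kb of transcript on a log axis for the 10 genes in the 3 CX3CR1- libraries, 1 symbol per replicate, with the mean as a line, ordered by the mean. Fabp2 is highest at 13014 to 21928 per kb and Mttp has the lowest mean, at 6.74 to 15.96, and the triangle of replicate 3 is the lowest symbol in every gene.

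All 10 genes had their lowest CX3CR1- value in replicate 3. Over all tested genes, the lowest CX3CR1- value fell in replicate 3 for 34.1%, in replicate 2 for 35.0% and in replicate 1 for 30.9%. Among the marker lists described below, it fell in replicate 3 for 11 of 14 enterocyte and 5 of 6 goblet cell markers. For general epithelium markers it did so for 3 of 8. Npc1l1 was nearly equal in replicates 2 and 3, at 130.5 and 129.6. The highest value fell in replicate 1 for 7 genes and in replicate 2 for Mttp, Dgat1 and Mogat2. Summed, the 10 genes took 0.233, 0.225 and 0.141% of the normalized total in CX3CR1- replicates 1, 2 and 3, and 0.00241 to 0.00352% in CX3CR1+ libraries, where most of the sum was Dgat1. Without mitochondrial genes in the total, the CX3CR1- share was 0.414 ± 0.110% (SD, n = 3) instead of 0.200 ± 0.0508%.

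Many markers of epithelial cells were also higher in CX3CR1- libraries. All 8 markers of epithelium, among them Epcam and Cdh1, were higher in every CX3CR1- library than in any CX3CR1+ library, and 7 of them were tested and called higher. Their sum ran from 1106 to 1365 in CX3CR1- and from 7.99 to 22.6 in CX3CR1+ libraries, where Epcam was at 0, 2.46 and 0. Of 14 enterocyte markers from outside fat absorption, among them Vil1 and Alpi, all 14 were apart in the same direction and 12 were tested and called higher, with sums of 4621 to 7418 and 109 to 145. In CX3CR1+ libraries Alpi was at 0 in all 3 and Vil1 at 13.2 to 24.1. All 6 goblet cell markers, among them Muc2 and Tff3, were called higher, with sums of 2128 to 5974 and 7.74 to 15.3. Other epithelial lists were mixed: 2 of 4 tested ileal enterocyte, 2 of 3 Paneth, 2 of 4 enteroendocrine and 1 of 2 tuft cell markers were called higher. The 1 crypt stem cell marker tested was also called higher, and none of these lists held a gene called lower. Markers of other cell types were higher too, all 4 of B and plasma cells with sums of 1358 to 3511 against 22.2 to 30.2, and all 3 of fibroblasts with 2584 to 7976 against 116 to 216. The 7 epithelial markers, 9 of the 12 enterocyte markers and the 6 goblet cell markers called higher passed the filter only through the CX3CR1- libraries, so that these counts had to come out in this direction. The same holds for the 2 ileal markers and 1 of the 2 Paneth cell markers called higher. None of the 5 smooth muscle markers was called, with sums of 752 to 2131 in CX3CR1- and 1627 to 2247 in CX3CR1+ libraries, and neither was the 1 T cell marker tested. None of the 4 hepatocyte markers in the table reached the mean of 10, and they summed to 19.7 to 30.95 in CX3CR1- and 6.79 to 13.8 in CX3CR1+ libraries. The part of epithelial cells or their RNA in the values of the 10 genes was not tested.

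The sums were also set side by side across the CX3CR1- libraries. Relative to its CX3CR1- mean, the sum of the 10 genes was 1.22, 1.11 and 0.673 in replicates 1, 2 and 3. That of the enterocyte markers was 1.16, 1.11 and 0.725, so that the ratio of both sums was 3.90, 3.71 and 3.45. The general epithelium markers were at 1.13, 0.952 and 0.917, and the ratio of the 10 genes to them was 21.2, 22.8 and 14.4. Fabp2 made up 73.1 to 80.0% of the sum of the 10 genes, which therefore mostly follows this gene. The other genes did not all share its course. The highest CX3CR1- value was 1.24 (Npc1l1) to 6.58 (Mogat2) times the lowest, with 3.56 for Fabp1 and 3.59 for Apoc3. Goblet cell markers were at 1.58, 0.857 and 0.563. Ileal enterocyte markers were at 0.347, 1.76 and 0.896, but Fabp6 made up 83.9 to 96.1% of that sum, and the other 4 ileal markers were at 0.970, 1.19 and 0.841. Fibroblast markers, among them Col1a1 and Dcn, were highest in replicate 3. With 3 libraries these are values side by side, without a test. The ileal gene Fabp6 was 0.419 times as high per kb as Fabp1 in CX3CR1- replicate 1 and 5.02 and 4.33 times as high in replicates 2 and 3. Apoa1 exceeded Apoc3 2.45-fold per kb in replicate 1 and 5.73-fold and 5.81-fold in replicates 2 and 3.

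**Figure D4:**
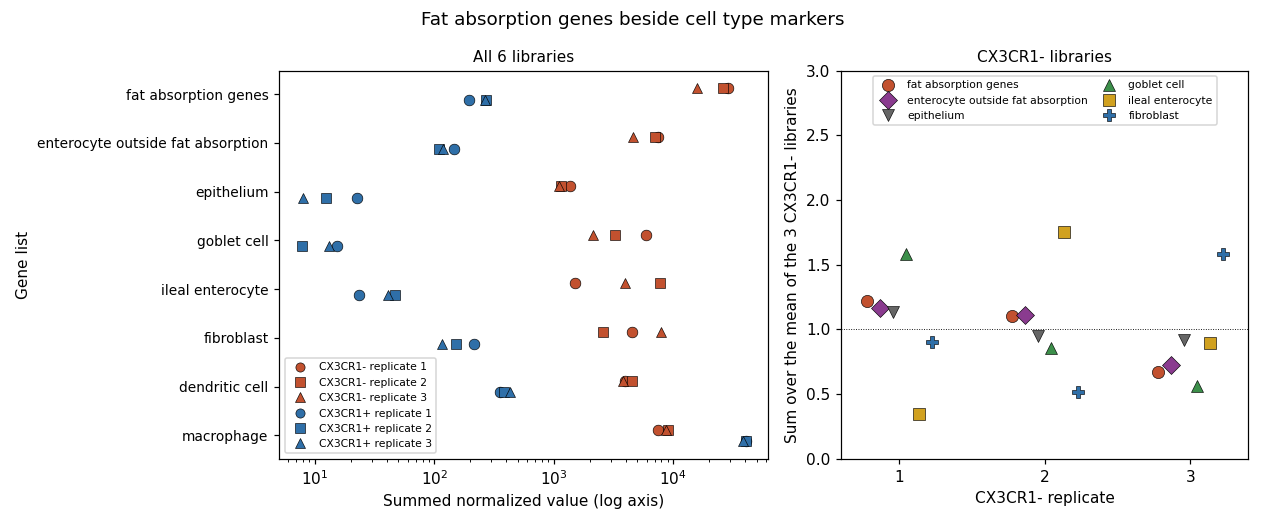
Left, summed normalized values of the 10 fat absorption genes and of 7 marker lists in all 6 libraries on a log axis; right, the sums of 6 of these lists in each CX3CR1- library over their mean in the 3 CX3CR1- libraries. The sum of the fat absorption genes, which is mostly Fabp2, lies close to that of the enterocyte markers in each CX3CR1- library (1.22 and 1.16, 1.11 and 1.11, 0.673 and 0.725). The epithelium markers are at 1.13, 0.952 and 0.917. The ileal list, which is mostly Fabp6, and the fibroblast markers lie apart from the fat absorption genes and the enterocyte markers.

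Among the 5 genes whose pattern over the 6 libraries was nearest to the mean pattern of the 10 genes, by Euclidean distance of centred log2(value + 1), were Slc51b, Eps8l2, Prap1 and Slc5a1, at distances of 0.415, 0.426, 0.512 and 0.526. Slc51b is part of the basolateral bile acid exporter and Slc5a1 the glucose transporter SGLT1, and both stood in the marker lists of ileal or other enterocytes. Slc51b was at 186, 191 and 133 in CX3CR1- replicates 1, 2 and 3 and at 0.463, 0 and 0 in CX3CR1+ libraries. Eps8l2, Prap1 and Slc5a1 were at 0 in every CX3CR1+ library and, like the 10 genes, lowest in CX3CR1- replicate 3. This likeness follows from how they were picked.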

How the data were processed

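MHCIIhi CX3CR1- and MHCIIhi CX3CR1+ cells were sorted from the ME and sequenced as 3 libraries each. The authors pseudoaligned the reads to the GENCODE vM16 mouse transcriptome (mm10) with Kallisto, brought the estimated counts into R with tximport at gene level and applied DESeq2 normalization, and the deposited signal values per gene were used as such. They are not read counts: only 42.6 to 44.7% of nonzero values equalled a whole number of steps (within 0.01) of their library's smallest step, so no count test was run. That step gave the approximate reads and the 3-read level, which cover counting error only. Libraries were grouped by their titles, and no column was left unmatched.

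The 17812 of 26110 genes whose 6 libraries averaged 10 or more were fitted with limma 3.58.1 in R 4.3.3 (lmFit, then eBayes with trend) after log2(value + 1) transformation, and two-sided p-values were adjusted by Benjamini-Hochberg across all tested genes. Folds on this scale understate the change of low genes. The fit was checked on simulated data. Single genes were also compared by an exact two-sided permutation test. Positions, transcript lengths and shared 31-base stretches came from GENCODE vM21 for GRCm38, promoters from RefSeq. Plots were drawn with matplotlib.

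All 10 genes were named. Further named genes were, in each lipid list, the 3 called genes with the largest log2 fold change in either direction and those called against the list's majority, the first 2 markers of a list and the 5 nearest patterns. Genes named beyond this rule, such as the neighbours of the apolipoprotein cluster, Trmt10a, Fabp5 and the regulators under the filter, were chosen after their values were seen. Some genes and 1 motif that these rules name are not reported here. The genes and lists were chosen with earlier results of these data known. Alternatives were pseudocounts of 0.5 and 10, no filter, an average of 50 or more, rescaling by median of ratios with and without mitochondrial genes, quantile normalization, no trend, library weights, the adjusted p alone and leaving out each library.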

Additional observations from a re-analysis of the deposited data

How the results depend on the processing

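Of the 10 genes, 7 to 9 were called higher under every alternative run, and no gene changed direction. Only Mttp lost its call, as given in the report, and with a mean of at least 50 Mttp and Mogat2 were not tested. That filter also left 2413 called genes of all tested, against 3628, since fewer genes were tested. Leaving out 1 library gave 8 to 9 called members, 26 to 30 called pathway genes (28 with all libraries) and 2771 to 3869 called genes in all. The log2 fold change of Apoa4 ranged from 5.72 to 10.01 and that of Mogat2 from 2.25 to 6.15 over the alternatives, the lowest with a pseudocount of 10. Quantile normalization moved the median of all genes to -0.15, and relative to that median Mttp was at 1.44 and Dgat1 at -0.30. Without mitochondrial genes in the total, the share of the 10 genes in CX3CR1- libraries was 0.414% instead of 0.200%. The share of Fabp2 in the summed level per kb was 77.2%, 75.5 to 80.4% with 1 CX3CR1- library left out and 75.6% with the mean transcript length. With that length, Apob and Dgat1 exchanged places in the order. No paired analysis was run, because the labels give only library numbers and state no pairing of the populations. In CX3CR1+ libraries, whose depths overlapped those of CX3CR1- libraries, the folds of 8 of the 10 genes rest on 0 to 23 reads.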
